A study of Mus musculus with 18 samples.

Results

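Cyclic AMP and cyclic GMP are second messengers that are made by adenylyl and guanylyl cyclases, broken down by phosphodiesterases, and read in large part by the cyclic AMP-dependent kinase PKA and the cyclic GMP-dependent kinase PKG. The genes described here encode these enzymes. They were chosen by symbol from the annotation of the array, as every gene named Pde1 to Pde11 with a letter, Adcy with a number, Gucy1 or Gucy2, or as a subunit of PKA or PKG, and this gave 47 of the 18193 genes measured. Among them were 20 phosphodiesterases with a catalytic domain, 3 further subunits of the photoreceptor enzyme PDE6, 10 adenylyl cyclases, 6 guanylyl cyclase subunits, 2 catalytic and 4 regulatory subunits of PKA, and 2 forms of PKG. The rule itself uses the symbol alone. Between them the 47 genes had 115 probe sets of their own, and each gene was represented by its brightest.

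In sensory neurons of the dorsal root ganglia (DRG), a rise in cyclic AMP lowers the threshold of pain-sensing neurons, for example when prostaglandin E2 acts on its receptors during inflammation. Cyclases set how fast the messenger is made, and phosphodiesterases set how far and how long it acts. Resting PKA is a complex of regulatory and catalytic subunits, and cyclic AMP frees the catalytic ones.

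Whole DRG of every spinal level were profiled with Affymetrix GeneChip arrays for the mouse genome in 3 lines of mice, each lacking 1 voltage-gated sodium channel of sensory neurons. The Nav1.7 KO was conditional, made by crossing mice with a floxed Scn9a gene to mice that express Cre recombinase under the Advillin gene (Avil), so only sensory neurons lost the channel. The Nav1.8 KO (Scn10a) and the Nav1.9 KO (Scn11a) were global nulls. Every line had 3 KO and 3 littermate arrays, 18 in all, from untreated adult mice; the sources used here do not give the sex of each sample or say whether an array held 1 animal. The p-values below thus reflect only how these samples vary, and 3 arrays a group limit the precision. Values are log2 intensities, and a log2 fold change is the KO mean minus the littermate mean. In whole DRG, fewer cells of a type and less RNA per cell cannot be told apart.

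The labels were checked on the targeted genes. Scn10a was 2.98-fold lower after loss of Nav1.8 and Scn11a 3.62-fold lower after loss of Nav1.9, whereas the Scn9a probe set used differed by only -0.06 on the log2 scale in Nav1.7 KO DRG (adjusted p = 0.642, limma), which does not settle that label. The Cre line showed in Avil, 1.56-fold lower in that KO (adjusted p = 8.03e-08), and the effects of Cre, of lower Avil and of lost Nav1.7 cannot be told apart. By Xist, the RNA of the inactive X chromosome, 7 arrays were high and 11 low: among Nav1.7 arrays KO replicate 2 was the low one, among Nav1.8 arrays KO replicates 2 and 3 were the high ones, and all Nav1.9 arrays were low. Replicates of a group correlated at 0.996 to 0.998 across probe sets.

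Loss of Nav1.7 came with changes in 9 of the 47 genes, or 19.1%, at an adjusted p under 0.05 (limma, Benjamini-Hochberg over all genes), where 4.33% of all genes measured passed. Of these, 6 fell, beside 2.51% of all genes: the phosphodiesterases Pde4d, Pde1b, Pde10a and Pde1c, the PKA catalytic subunit Prkacb and the PKA regulatory subunit Prkar2b. The other 3 rose, beside 1.81% of all genes, namely the adenylyl cyclases Adcy7 and Adcy8 and the phosphodiesterase Pde11a. The changes were between 1.18-fold and 1.52-fold, and the median log2 fold change of the 47 genes was -0.01, beside 0.01 for all genes. KO and littermate arrays did not overlap for 15 genes (31.9%), beside 20.4% of all genes. With the 6 Nav1.7 arrays fitted alone 5 of the 47 passed, and Adcy7, Pde1c, Prkacb and Prkar2b were lost. By analysis of variance on these arrays, after adjustment, 0 passed. Over the same genes, 0 passed in the Nav1.8 line and 1, Pde1c, in the Nav1.9 line.

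**Figure D1:**
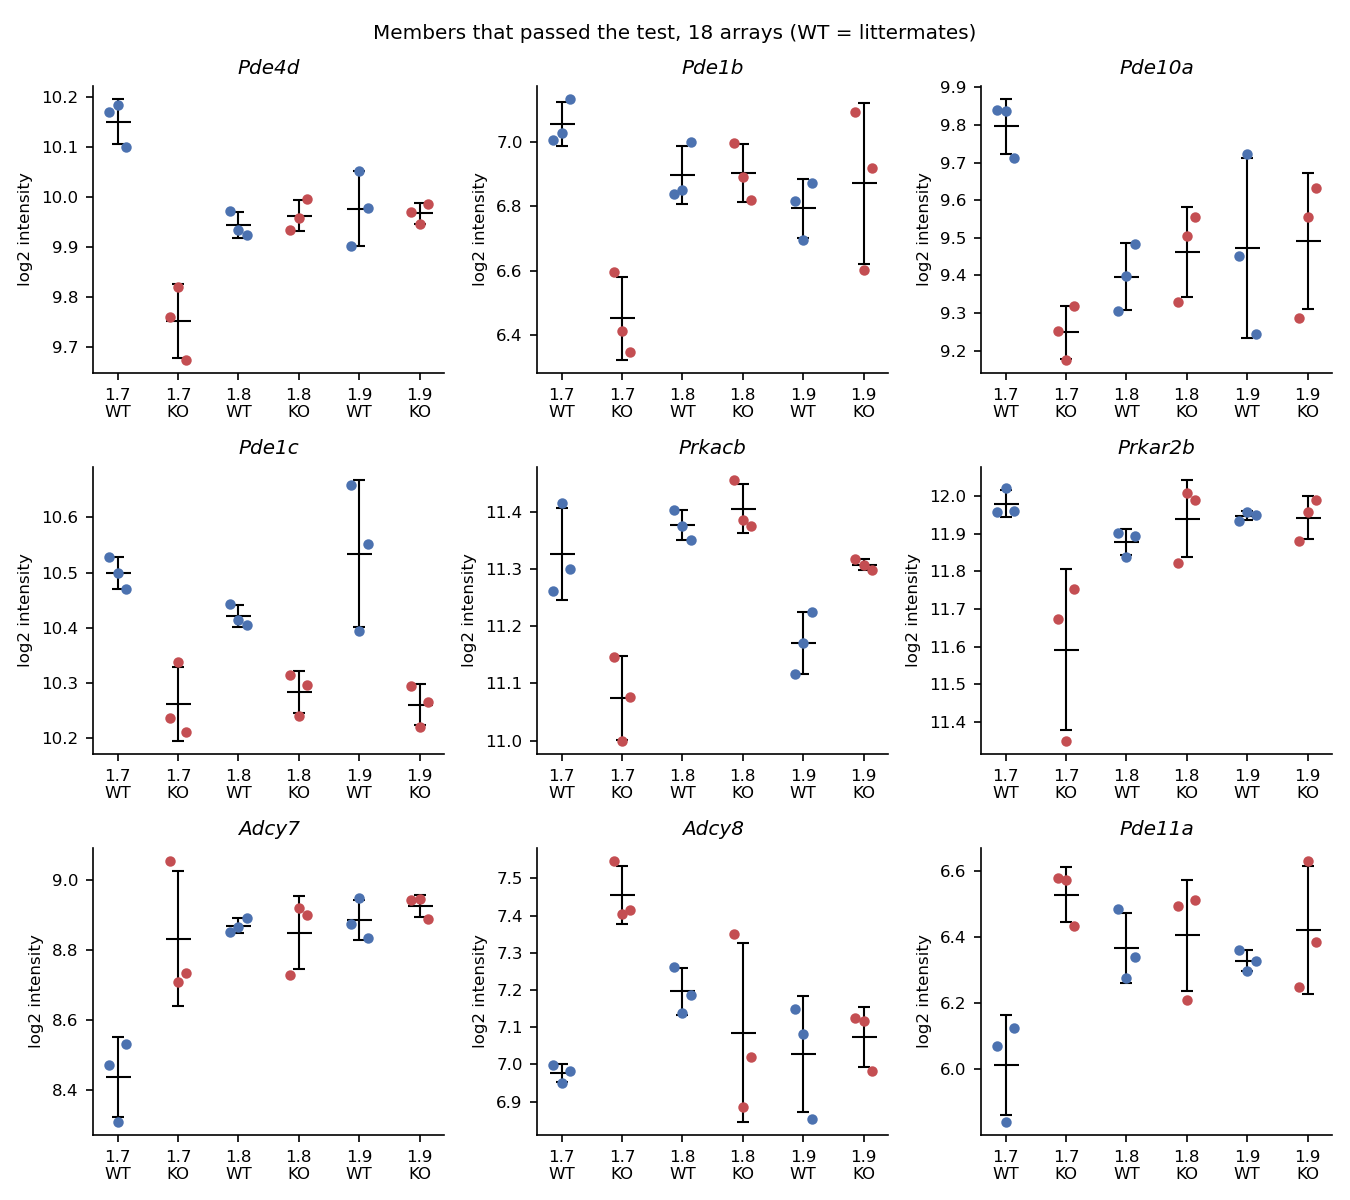
Log2 intensity (y axis) of the 9 genes that passed in a line, in 18 arrays, by line and genotype (x axis); points are arrays, bars are the mean with the SD of 3 arrays, blue for littermates (WT) and red for KO. For all 9 genes the Nav1.7 KO arrays did not overlap the Nav1.7 littermates, and for Pde1c the KO arrays lay below the littermates in all 3 lines.

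Among the phosphodiesterases, Pde4d changed with the smallest p. Its product breaks down cyclic AMP alone and belongs to the family that rolipram inhibits. Pde4d read 10.17, 10.18 and 10.10 in the Nav1.7 littermates against 9.76, 9.82 and 9.67 in Nav1.7 KO arrays. All 3 KO arrays lay below, and all 3 littermates above, every array of the other lines, which held between 9.90 and 10.05. The fall was 1.32-fold (log2 fold change -0.40, SE 0.0467, adjusted p = 7.5e-05). Its values were 9.97, 9.93 and 9.92 in Nav1.8 littermates and 9.93, 9.96 and 9.996 in Nav1.8 KO arrays. They were 9.90, 10.05 and 9.98 in Nav1.9 littermates and 9.97, 9.95 and 9.99 in Nav1.9 KO arrays. KO and littermate arrays overlapped in both of these lines. A second, dimmer Pde4d probe set also fell in Nav1.7 KO DRG, by 0.61 on the log2 scale (adjusted p over all probe sets = 0.00766).

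The PDE1 enzymes are switched on by calcium and calmodulin and break down both cyclic nucleotides. Pde1b read 7.004, 7.03 and 7.13 in Nav1.7 littermates and 6.60, 6.41 and 6.35 in Nav1.7 KO arrays. All 3 KO arrays were below every other array of the study. Pde1b was 1.52-fold lower (log2 fold change -0.60, SE 0.101, adjusted p = 0.00219, limma). The study names a p under 0.01, from analysis of variance, and a change over 1.5-fold. With the unadjusted limma p in place of that p, Pde1b alone of the 47 passed both thresholds, beside 0.676% of all genes. In the Nav1.8 line its values were 6.84, 6.85 and 6.999 in littermates and 6.997, 6.89 and 6.82 in KO arrays. In the Nav1.9 line they were 6.81, 6.69 and 6.87 in littermates and 7.09, 6.60 and 6.92 in KO arrays. Neither line separated KO from littermate arrays, and Pde1b has no second probe set.

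By the probe sets used, Pde1c alone of the 47 genes had KO arrays that lay below the littermates of their own line in all 3 lines. Nav1.7 littermates read 10.53, 10.50 and 10.47 and Nav1.7 KO arrays 10.24, 10.34 and 10.21, a fall of 1.18-fold (log2 fold change -0.24, SE 0.0560, adjusted p = 0.0235). Nav1.9 littermates read 10.66, 10.39 and 10.55 and Nav1.9 KO arrays 10.30, 10.22 and 10.27, a fall of 1.21-fold (log2 fold change -0.27, adjusted p = 0.0418), where 0.473% of all genes passed. In the Nav1.8 line, littermates read 10.44, 10.41 and 10.41 and KO arrays 10.31, 10.24 and 10.30, a log2 fold change of -0.14 that did not pass (unadjusted p = 0.0264, adjusted p = 0.561). KO and littermate arrays did not overlap in any of the lines. The KO effect differed between the Nav1.7 and Nav1.8 lines by -0.10 and between the Nav1.7 and Nav1.9 lines by 0.04 (SE 0.0791 for both), and neither difference passed. All 6 Pde1c probe sets had lower KO than littermate means in the Nav1.7 line, 2 of them past the threshold, and their log2 fold changes ran from -0.43 to -0.06. In the Nav1.8 line 3 of the 6 had lower and 3 higher KO means, and in the Nav1.9 line 5 lower and 1 higher. With adjustment over all probe sets, 0 of the 6 passed in either line. The one used had an adjusted p of 0.0715 there in the Nav1.9 line (limma). The Nav1.7 call was lost without Nav1.7 littermate replicate 1 or 2 or Nav1.7 KO replicate 1 or 3 (adjusted p up to 0.0836). The Nav1.9 call was lost in 16 of the 18 fits that left out 1 array.

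Pde10a, which also acts on both cyclic nucleotides and is best known from striatal neurons, read 9.84, 9.84 and 9.71 in Nav1.7 littermates and 9.25, 9.18 and 9.32 in Nav1.7 KO arrays. It was 1.46-fold lower (log2 fold change -0.55, SE 0.107, adjusted p = 0.00667). Compared with the arrays of the other lines (9.24 to 9.72), 2 Nav1.7 littermates stood above the range and 1 KO array stood below it. Nav1.8 arrays read 9.31, 9.40 and 9.48 in littermates and 9.33, 9.50 and 9.55 in KO. Nav1.9 arrays read 9.45, 9.72 and 9.24 in littermates and 9.29, 9.55 and 9.63 in KO, so that both genotypes of these lines overlapped. Of the 5 Pde10a probe sets, 4 had lower means in KO than in littermate arrays of the Nav1.7 line and 2 of these passed (log2 fold changes -0.55 and -0.53), while the dimmest had a log2 fold change of 0.17 that did not pass.

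Pde11a, another enzyme with both substrates, was the phosphodiesterase that rose. It read 6.07, 5.84 and 6.13 in Nav1.7 littermates and 6.58, 6.57 and 6.43 in Nav1.7 KO arrays, which is 1.43-fold higher (log2 fold change 0.52, SE 0.101, adjusted p = 0.00666). Here the littermates, not the KO arrays, were the ones outside the range of the other lines: all 3 lay below its lower end of 6.21, and all 3 KO arrays lay within it. Nav1.8 arrays held 6.49, 6.28 and 6.34 in littermates and 6.49, 6.21 and 6.51 in KO, and Nav1.9 arrays 6.36, 6.299 and 6.33 in littermates and 6.25, 6.63 and 6.39 in KO. The probe set was dim, under the 40th percentile of all genes, and the second Pde11a probe set had a log2 fold change of -0.00. Pde11a lies 9.35 Mb from Scn9a on chromosome 2 (mouse assembly GRCm38.p6); of the 122 genes measured within 10 Mb of Scn9a, 2 rose and 1 fell, which is 2.46%, beside 4.33% of all genes.

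Of the other 15 phosphodiesterases, 0 passed in Nav1.7 KO DRG by limma. At an unadjusted p under 0.05 there were 6 of the 20, the 5 above and Pde7a, and their log2 fold changes were between -0.60 and 0.52. For Nav1.7 KO DRG the share of all genes at this threshold was not computed, here or for the families and lists below. Pde7b, a cyclic AMP-specific enzyme, was 0.29 higher on the log2 scale without overlap of its arrays (adjusted p = 0.314). Pde2a, Pde3b and the PDE6 subunit Pde6d differed by no more than 0.09 in Nav1.7 KO DRG. The 3 PDE6 subunits without a catalytic domain gave log2 fold changes between -0.06 and 0.07.

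**Figure D2:**
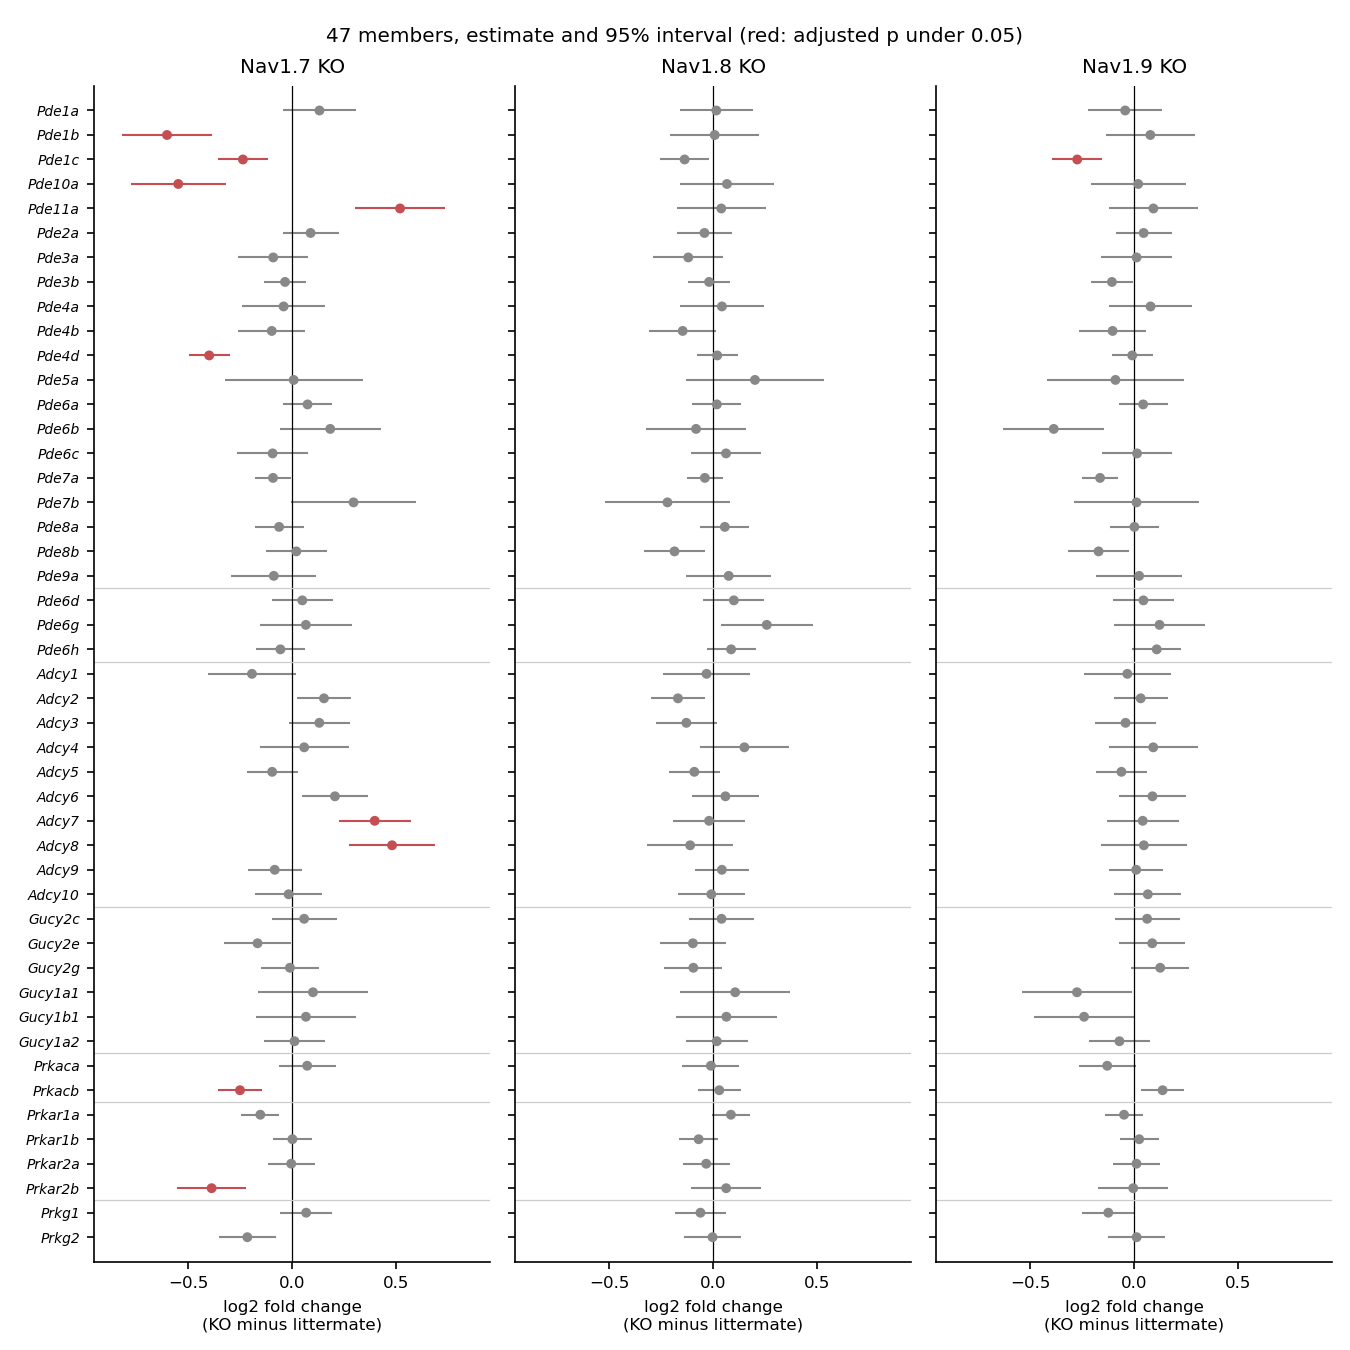
Log2 fold change (x axis, KO minus littermate) with its 95% interval for each of the 47 genes (y axis) in the 3 lines; grey lines part the families, and red marks an adjusted p under 0.05. In Nav1.7 KO DRG 9 intervals are red, in Nav1.9 KO DRG only that of Pde1c, and in Nav1.8 KO DRG none.

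Among the adenylyl cyclases, which make cyclic AMP, 2 of 10 rose in Nav1.7 KO DRG and 0 fell. Adcy8, a cyclase that calcium and calmodulin stimulate, read 6.999, 6.95 and 6.98 in Nav1.7 littermates and 7.55, 7.41 and 7.42 in Nav1.7 KO arrays. It was 1.39-fold higher (log2 fold change 0.48, SE 0.0970, adjusted p = 0.0087). The KO arrays were higher than every other array of the study, and the littermates lay within the range of the other lines. Its Nav1.8 values were 7.26, 7.14 and 7.19 in littermates and 7.35, 6.88 and 7.02 in KO. Its Nav1.9 values were 7.15, 7.08 and 6.85 in littermates and 7.13, 7.12 and 6.98 in KO. Both lines showed overlap, and the gene has 1 probe set.

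Adcy7, a cyclase found widely in cells of the immune system, read 8.47, 8.31 and 8.53 in Nav1.7 littermates and 9.06, 8.71 and 8.73 in Nav1.7 KO arrays (1.32-fold higher, log2 fold change 0.40, SE 0.0812, adjusted p = 0.0096). As with Pde11a, the Nav1.7 littermates stood apart: all 3 lay below every array of the other lines, which held between 8.73 and 8.95, while 1 KO array lay below, 1 within and 1 above that range. Nav1.8 arrays read 8.85, 8.87 and 8.89 in littermates and 8.73, 8.92 and 8.90 in KO. Nav1.9 arrays read 8.87, 8.95 and 8.83 in littermates and 8.94, 8.95 and 8.89 in KO. All 3 Adcy7 probe sets were higher in Nav1.7 KO DRG and 2 passed, with log2 fold changes between 0.24 and 0.43. Without Nav1.7 littermate replicate 2 the adjusted p was 0.0529. The mean log2 intensity of 11 macrophage and immune markers went the same way: it was 7.15 to 7.49 in Nav1.7 littermates, 7.54 to 7.95 in Nav1.7 KO arrays and 7.61 to 8.25 in the other lines. All 11 were higher in Nav1.7 KO DRG, with a median log2 fold change of 0.38, and 1, Adgre1, passed. Their part in the change of Adcy7 was not tested.

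The other 8 adenylyl cyclases did not pass in Nav1.7 KO DRG. Adcy6 had a log2 fold change of 0.20 (adjusted p = 0.165) and Adcy2 one of 0.15 (adjusted p = 0.211), and for Adcy1, the neuronal cyclase that is closest in regulation to Adcy8, it was -0.19 (adjusted p = 0.354). For the 6 guanylyl cyclase subunits, which make cyclic GMP, log2 fold changes were between -0.17 and 0.10, and 0 passed by limma, with 1, Gucy2e, at an unadjusted p under 0.05. Only 2 of these 6 were above the 40th percentile of brightness.

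**Figure D3:**
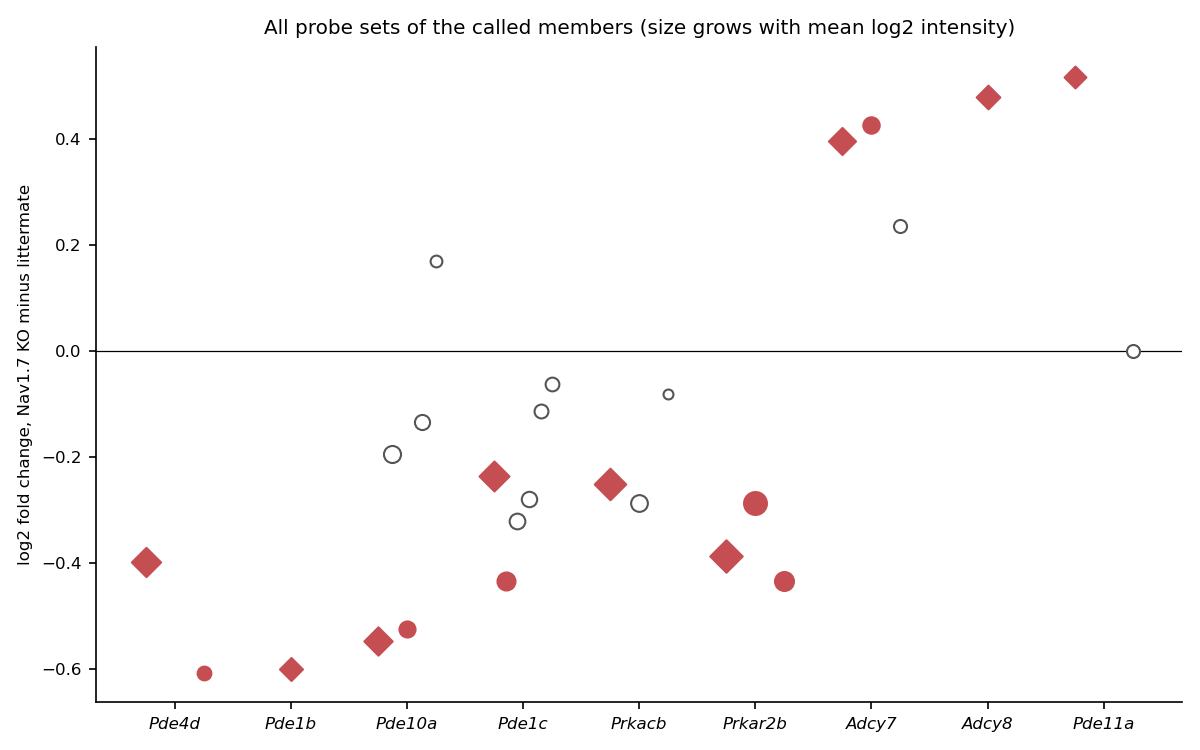
Log2 fold change in Nav1.7 KO DRG (y axis) for every probe set of the 9 genes that passed (x axis); diamonds are the brightest probe sets, circles the others, filled where the adjusted p over all probe sets is under 0.05, and symbols grow with mean log2 intensity. The Pde4d, Prkar2b, Pde1c and Prkacb probe sets all lie below 0 and the Adcy7 ones above it. The dimmest Pde10a probe set lies above 0, unlike the other 4. Pde11a has 2 probe sets, both dim, 1 at 0.52 and 1 at -0.00.

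Among PKA subunits, Prkacb encodes the catalytic subunit Cβ. It read 11.26, 11.42 and 11.30 in Nav1.7 littermates and 11.15, 11.00 and 11.08 in Nav1.7 KO arrays, which is 1.19-fold lower (log2 fold change -0.25, SE 0.0487, adjusted p = 0.00639). The groups did not overlap, and 2 of the KO arrays lay below every array of the other lines. Nav1.8 arrays held 11.40, 11.37 and 11.35 in littermates and 11.46, 11.39 and 11.38 in KO. Nav1.9 arrays held 11.12, 11.17 and 11.23 in littermates and 11.32, 11.31 and 11.30 in KO. In the Nav1.9 line the KO arrays were the higher ones, without overlap (log2 fold change 0.14, adjusted p = 0.270). All 3 Prkacb probe sets had lower KO means in the Nav1.7 line, with 1 past the threshold, and with the mean of the 3 the gene did not pass. The other catalytic subunit, Prkaca, had a log2 fold change of 0.07 in Nav1.7 KO DRG.

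Prkar2b encodes the regulatory subunit RIIβ, which anchoring proteins hold at neuronal membranes. It read 11.96, 12.02 and 11.96 in Nav1.7 littermates and 11.67, 11.35 and 11.75 in Nav1.7 KO arrays, a fall of 1.31-fold (log2 fold change -0.39, SE 0.0787, adjusted p = 0.00895). All 3 KO arrays lay below every array of the other lines, with replicate 2, the array with low Xist, lowest; without it the log2 fold change was -0.27 and the call stayed. Littermates of the Nav1.8 line read 11.90, 11.84 and 11.89, and KO arrays 11.82, 12.01 and 11.99. Littermates of the Nav1.9 line read 11.93, 11.96 and 11.95, and KO arrays 11.88, 11.96 and 11.99. All 3 Prkar2b probe sets fell in Nav1.7 KO DRG, by 0.29 to 0.43 on the log2 scale.

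Prkar1a, the regulatory subunit RIα, came close to the threshold. Nav1.7 littermates read 12.99, 13.01 and 12.94 and Nav1.7 KO arrays 12.83, 12.82 and 12.83, a log2 fold change of -0.15 (SE 0.0426, adjusted p = 0.0552). The KO arrays were below every other array of the study, although the gene did not pass. Elsewhere it read 12.85, 12.89 and 13.00 in Nav1.8 littermates, 12.98, 12.99 and 13.03 in Nav1.8 KO arrays, 13.10, 13.07 and 13.11 in Nav1.9 littermates, and 12.99, 13.09 and 13.04 in Nav1.9 KO arrays. It passed with quantile normalization, without dim genes and with a trended robust prior. All 3 Prkar1a probe sets had lower KO means in the Nav1.7 line. A dimmer one passed (log2 fold change -0.18, adjusted p over all probe sets = 0.0439, limma), and the one used did not (0.118 on that scale). The remaining regulatory subunits, Prkar1b and Prkar2a, had log2 fold changes of 0.00 and -0.01 in Nav1.7 KO DRG, so that the 4 regulatory subunits ranged from -0.39 to 0.00.

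The kinase PKG is the main reader of cyclic GMP in sensory neurons. Prkg1, its form in nociceptors, had a log2 fold change of 0.07 in Nav1.7 KO DRG. Prkg2, the membrane-bound form, read 8.21, 8.40 and 8.49 in Nav1.7 littermates and 8.18, 8.20 and 8.07 in Nav1.7 KO arrays. Its groups did not overlap, and its log2 fold change was -0.22 (SE 0.0640, adjusted p = 0.0741), which did not pass. It passed without dim genes (adjusted p = 0.0424), with the mean of all its probe sets (adjusted p = 0.0217) and without Nav1.7 littermate replicate 1 (adjusted p = 0.0132). In the other lines it read 8.27, 8.18 and 8.30 in Nav1.8 littermates, 8.30, 8.20 and 8.24 in Nav1.8 KO arrays, 8.24, 8.27 and 8.13 in Nav1.9 littermates, and 8.25, 8.22 and 8.20 in Nav1.9 KO arrays.

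PKA also acts on transcription, through the factor CREB and the cyclic AMP response element (CRE), TGACGTCA, which reads the same on both strands. This motif and its shorter form TGACG, which the full motif contains, were searched on both strands in the 250 bases before each RefSeq transcript start (GRCm38.p6). The table held 76 such windows for 36 of the 47 genes. The full motif was found in 1 of them, for Prkar1a, and in 1.55% of all windows. The short form was found in 16 windows of 14 genes (21.1% of the windows), beside 17.8% of all windows. By gene this was 38.9% of the 36, beside 19.8% of all genes with a window, but the 36 have more windows each, 76 in all against 32851 for 27025 genes. Of the genes that passed, 8 had windows, 18 in all, and Prkacb and Adcy7 held the short form in 1 each, which is 11.1% of the windows and 25% of the genes. The 120 bases before the start are shown for these genes because Prkar1a and Prkacb are subunits of the kinase that acts through the element, and Adcy7 makes its messenger. Capitals mark the motif, on the strand of the gene.
Prkar1a, chr11:109650829-109650948, plus strand: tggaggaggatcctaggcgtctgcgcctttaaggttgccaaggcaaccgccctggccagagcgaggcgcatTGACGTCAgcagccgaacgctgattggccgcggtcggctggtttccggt
Prkacb, chr3:146812947-146813066, minus strand: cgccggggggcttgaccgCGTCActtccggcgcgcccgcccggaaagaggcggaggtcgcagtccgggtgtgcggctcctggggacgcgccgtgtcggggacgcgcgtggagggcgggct
Adcy7, chr8:88282872-88282991, plus strand: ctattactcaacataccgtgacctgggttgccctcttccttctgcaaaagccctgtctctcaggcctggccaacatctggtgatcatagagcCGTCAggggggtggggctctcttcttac
The first base of the motif stands 49, 102 and 28 bases before the start in Prkar1a, Prkacb and Adcy7. In Prkacb and Adcy7 the short form runs on the opposite strand to the gene. Prkar1a has 6 windows in the table, Prkacb 3 and Adcy7 3, and the arrays do not tell which start was used.

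In Nav1.8 KO DRG, 0 of the 47 genes passed by limma, where 0.0165% of all genes did. At an unadjusted p under 0.05 there were 4 (Adcy2, Pde8b, Pde6g and Pde1c), or 8.51%, beside 8.09% of all genes. By analysis of variance with the Benjamini-Hochberg adjustment 0 passed, and the share of all genes is not given here. Log2 fold changes were between -0.22 and 0.26, the lowest that of Pde7b and the highest that of Pde6g. Arrays of 3 genes (6.38%) did not overlap, beside 13.8% of all genes.

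In Nav1.9 KO DRG, Pde1c was the 1 gene of the 47 that passed. At an unadjusted p under 0.05 there were 8, or 17.0%, beside 12.1% of all genes. Pde7a, a cyclic AMP-specific enzyme, read 8.56, 8.50 and 8.50 in Nav1.9 littermates and 8.34, 8.37 and 8.36 in Nav1.9 KO arrays (log2 fold change -0.16, SE 0.0405, adjusted p = 0.0890). It passed where dim genes were left out (adjusted p = 0.0387). Its other arrays read 8.46, 8.57 and 8.52 in Nav1.7 littermates, 8.44, 8.36 and 8.46 in Nav1.7 KO, 8.44, 8.38 and 8.42 in Nav1.8 littermates, and 8.39, 8.34 and 8.39 in Nav1.8 KO. Pde7a was thus lower on average in the KO arrays of each line, and without overlap only in the Nav1.9 line. Pde6b, a catalytic subunit of the rod photoreceptor enzyme, was dim and read 5.96, 5.89 and 5.70 in Nav1.9 littermates and 5.62, 5.18 and 5.59 in Nav1.9 KO arrays. Its KO mean was 1.31-fold lower, which did not pass (adjusted p = 0.165), and its groups did not overlap. The log2 fold change was -0.39, and -0.25 without Nav1.9 KO replicate 2. Elsewhere Pde6b read 5.24, 5.38 and 5.32 in Nav1.7 littermates, 5.62, 5.44 and 5.42 in Nav1.7 KO, 5.39, 5.80 and 5.62 in Nav1.8 littermates, and 5.59, 5.49 and 5.49 in Nav1.8 KO arrays. The soluble guanylyl cyclase, which nitric oxide activates, pairs an alpha with a beta subunit, and none of the 3 measured passed in Nav1.9 KO DRG by limma, with 1, Gucy1a1, at an unadjusted p under 0.05. Log2 fold changes were -0.27 for Gucy1a1 (adjusted p = 0.395), -0.07 for Gucy1a2 (adjusted p = 0.750) and -0.24 for Gucy1b1 (adjusted p = 0.413), and the arrays of Gucy1b1 alone did not overlap.

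Whether the KO effect differed between lines was tested for every gene as the difference of the log2 fold changes. Between the Nav1.7 and Nav1.8 lines, 6 of the 47 genes passed, or 12.8%, beside 2.15% of all genes. They were Pde4d, Pde1b, Pde10a, Prkacb and Prkar2b, with the lower log2 fold change in the Nav1.7 line, and Adcy8, with the higher. Pde4d passed in each of the 18 fits that left out 1 array, and the other 5 were each lost in 10 to 15 of them. Between the Nav1.7 and Nav1.9 lines, 3 passed, or 6.38%, beside 2.82% of all genes, and these were Pde4d, Pde1b and Prkacb, all of which passed in each of those 18 fits. With the mean of all its probe sets, Prkacb did not pass here (adjusted p = 0.162), its difference being -0.24 in place of -0.39. Between the Nav1.7 and Nav1.8 lines, Pde10a and Prkacb were also lost with the mean of all probe sets. Prkacb and Prkar2b were lost there when probe sets that may cross-hybridize were left out. With those probe sets kept, their adjusted p was 0.0475 and 0.0483 (limma), close to the threshold. Both comparisons use the same Nav1.7 arrays. Between the Nav1.8 and Nav1.9 lines, 0 passed by limma, beside 0.0385% of all genes, with 5 (10.6%) at an unadjusted p under 0.05, beside 9.04% of all genes. For Adcy7 the differences were 0.42 against Nav1.8 and 0.35 against Nav1.9 (adjusted p = 0.0816 and 0.123). For Pde11a they were 0.48 and 0.43 (adjusted p = 0.107 and 0.140). A different response of either gene in the Nav1.7 line is therefore not shown.

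The other genes of the pathway were taken from a list of receptors, ligands, G proteins, anchors, inhibitors, effectors and targets, of which 112 of 124 were measured. In Nav1.7 KO DRG, 5 rose and 4 fell, or 8.04%, beside 4.33% of all genes. In Nav1.8 KO DRG 0 passed by limma, beside 0.0165% of all genes, and in Nav1.9 KO DRG 0 rose and 4 fell, or 3.57%, beside 0.473% of all genes.

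Upstream of the cyclases, Htr4, a serotonin receptor that raises cyclic AMP, was 7.13 ± 0.155 in Nav1.7 KO and 8.56 ± 0.0926 in Nav1.7 littermate arrays (SD, n = 3), 2.68-fold lower (adjusted p = 1.52e-07, limma). The same comparison gave 1.77-fold higher Npy1r, a neuropeptide Y receptor that lowers cyclic AMP (8.18 ± 0.0761 against 7.35 ± 0.132, adjusted p = 0.000491, limma). The study lists Npy1r as lower in this KO, which is the opposite direction to the deposited array values. Calcrl, which forms the CGRP receptor, rose by 0.40 on the log2 scale, Ptger4, the EP4 receptor of prostaglandin E2, by 0.27, and Adcyap1, which encodes the cyclase-activating peptide PACAP, by 0.31. For Calcrl, all 3 Nav1.7 littermates lay below every array of the other lines, and the 3 KO arrays lay within their range. Thus 4 of the 31 receptors and ligands measured rose and 1 fell, where 1.81% of all genes rose and 2.51% fell. Npy1r fell in Nav1.9 KO DRG, by 0.63 on the log2 scale (adjusted p = 0.0233), so that the array values moved in opposite directions in these lines.

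Downstream, Ppp1r1a, an inhibitor of protein phosphatase 1 that PKA switches on, fell 1.81-fold in Nav1.7 KO DRG (8.88 ± 0.110 against 9.73 ± 0.0288, SD, n = 3, adjusted p = 3.01e-06, limma). Of the 5 genes for cyclic nucleotide export and for the cyclic AMP-binding Popeye proteins, the Popeye genes Bves and Popdc3 fell by 0.23 and 0.22. Of 15 target genes of cyclic AMP, 1, the neurotrophin gene Bdnf, rose by 0.57. In Nav1.9 KO DRG the targets Vgf, a secreted neuropeptide precursor, and Bdnf fell by 0.94 and 0.75, and Pkib, a peptide inhibitor of the PKA catalytic subunits, fell by 0.64 (adjusted p = 0.00554). The 7 G protein alpha subunits, 9 natriuretic peptide and nitric oxide genes, 5 Epac-related genes, 13 anchoring proteins, 9 genes of the CREB family and 7 cyclic nucleotide-gated channels had 0 genes past the threshold in each line by limma; in Nav1.7 KO DRG the unadjusted p was under 0.05 for 3 anchoring proteins and 2 genes of the CREB family, and for 0 of the other 4 groups.

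**Figure D4:**
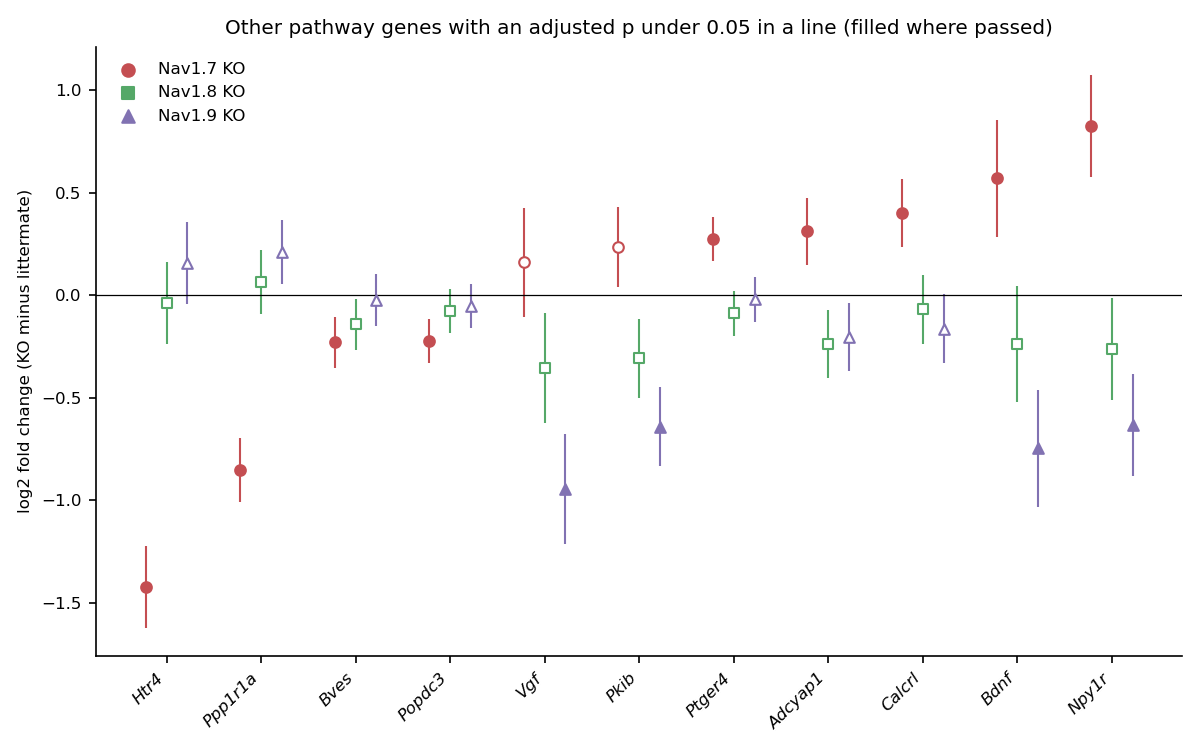
Log2 fold change (y axis, KO minus littermate) with its 95% interval for the 11 other pathway genes (x axis) that passed in a line; circles are Nav1.7, squares Nav1.8 and triangles Nav1.9, filled where the adjusted p is under 0.05. Htr4 and Ppp1r1a lie lowest in Nav1.7 KO DRG, and Npy1r and Bdnf are above 0 in Nav1.7 and below 0 in Nav1.9 KO DRG.

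Markers of neuron types moved in Nav1.7 KO DRG as well. Of 4 markers of C-fibre low-threshold mechanoreceptors, 3 fell (Th, Tafa4 and Gfra2), and their mean log2 intensity was 9.47 to 9.58 in Nav1.7 KO arrays, 10.42 to 10.51 in Nav1.7 littermates and 10.22 to 10.50 in the other lines. Of 8 markers of non-peptidergic nociceptors, 4 fell and 1 rose, with Gfra2 on both lists. Of 6 markers of peptidergic nociceptors, 3 rose (Tac1, Trpv1 and Adcyap1). Of 12 markers of sensory neurons at large, 3 fell (Ntrk2, Ret and Avil, the gene of the Cre line), and the mean of the 12 was 12.44 to 12.47 in Nav1.7 KO and 12.57 to 12.59 in Nav1.7 littermate arrays. Without Avil, left out after the data were seen, the mean of the other 11 was 12.46 to 12.49 in Nav1.7 KO and 12.55 to 12.57 in Nav1.7 littermate arrays. The part of these markers in the changes of the 9 genes was not tested. Of the lists for other cells, satellite glia and fibroblasts each had 1 gene that rose, and Schwann cells, vascular smooth muscle, endothelium, skeletal muscle, adipocytes and red blood cells had 0 that passed by limma, with 3 each of the smooth muscle and endothelial genes at an unadjusted p under 0.05. All 6 skeletal muscle genes had higher KO means in the Nav1.7 line, with a median log2 fold change of 0.77. Their mean log2 intensity ran from 6.56 to 10.03 in Nav1.7 KO and from 6.60 to 8.51 in Nav1.7 littermate arrays. The mean of the 8 endothelial genes was 7.25 to 7.46 in Nav1.7 KO and 7.19 to 7.33 in Nav1.7 littermate arrays. It was 7.48 to 7.61 in the other lines. The part of these cells was not tested either.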

How the data were processed

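RNA of whole DRG from 18 samples in 6 groups was hybridised to 1-colour arrays by the authors. Values were deposited as log2 intensities made in Affymetrix Expression Console. The summary method and the normalization between arrays are not given in the sources used here, and array medians lay between 6.33 and 6.36. No detection calls were used, so signal over background is not known for dim probe sets. Groups came from titles and genotype labels, since source names call every sample a littermate control.

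The 64 control probe sets were left out. Of the rest, 34945 had 1 gene symbol in the platform annotation, and 932 probe sets with several were not used. Each of 18193 genes was represented by its brightest probe set, without a filter on dim ones. Levels of different probe sets were not compared. A linear model with 6 group means was run with limma 3.58.1 in R 4.3.3, using its moderated variances (residual degrees of freedom 12, prior 3.44), and the Benjamini-Hochberg adjustment spanned all genes. Exact permutation of 3 against 3 arrays was not used, because its smallest two-sided p is 0.1. The fit was tested on simulated data.

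The rule for the 47 genes reads symbols and no value, but this gene family, the lists and the tests were chosen with earlier results of these data known. A gene has its value printed in every array if its adjusted p was under 0.05 in a line or in a difference between lines, its unadjusted p under 0.01 in a line, or its change over 1.3-fold without overlap of groups. Other genes were named by smallest p within a family, and other pathway genes at an adjusted p under 0.05. Pde2a, Pde3b, Pde6d, Adcy1, Prkaca, Prkar1b, Prkar2a, Prkg1 and the soluble guanylyl cyclase were named after their values were seen. Alternatives were other scalings, filters, probe set rules, variance priors, array weights, a replicate block, the Xist class as a term, other tests and thresholds, and leaving out each array.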

Additional observations from a re-analysis of the deposited data

Results flagged for a closer look

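The effect of the KO differed between lines in 9 tests over 6 genes, each as a difference of log2 fold changes with an adjusted p under 0.05 (limma). The KO effect on Pde4d, a log2 fold change, was lower in the Nav1.7 line than in the other lines. The differences were -0.42 against the Nav1.8 line and -0.39 against the Nav1.9 line (SE 0.0660, adjusted p = 0.00248 and 0.00353, limma). Pde1b gave differences of -0.61 and -0.68 (SE 0.143, adjusted p = 0.0370 and 0.0147), and Prkacb gave -0.28 and -0.39 (SE 0.0689, adjusted p = 0.0475 and 0.00501). Against the Nav1.8 line alone, Pde10a differed by -0.61 (adjusted p = 0.0477), Prkar2b by -0.45 (adjusted p = 0.0483) and Adcy8 by 0.59 (adjusted p = 0.0361). With the Xist class as a term, or with adjustment over all probe sets, Pde4d alone of the 6 still passed against the Nav1.8 line. In all 6 genes the Nav1.7 KO arrays lay on 1 side of their littermates in 3 of 3 samples, without overlap. Of all genes, 20.4% did not overlap in the Nav1.7 line. The 6 genes passed a test on these same arrays, so their lack of overlap adds no separate evidence. Groups of 3 arrays were too small for a test of single outlying arrays.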

How the results depend on the processing

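No gene or difference recomputed under the alternatives changed direction. Of 9 genes that passed in Nav1.7 KO DRG, 7 to 10 passed when 1 array was left out, 5 with each line fitted alone, 1 at the study's thresholds and 0 by analysis of variance per line after adjustment. The Nav1.9 count of 1 became 0 with the line alone, quantile normalization, the mean of all probe sets, adjustment over all probe sets, the replicate block, analysis of variance and the study's thresholds, and 2 without dim genes. It was 0 to 1 with 1 array left out. The count of 6 differences between the Nav1.7 and Nav1.8 lines became 3 with median centring, 1 with adjustment over all probe sets, 2 with the replicate block and 2 with an added Xist class term, and was 1 to 5 with 1 array left out. Of the 6, Pde4d alone passed with the Xist class term, so the other gene counted there was not among them. The 3 differences between the Nav1.7 and Nav1.9 lines became 5 without dim genes and 5 with the Xist class, and were 3 to 4 with 1 array left out. The causes were not tested. The Nav1.8 count stayed 0 throughout. Fits of 1 line gave no differences between lines. Same-numbered KO and littermate arrays correlated at -0.19 to 0.27 in their deviations. Arrays of different number were not compared, so this does not settle whether the numbers pair the samples. With the replicate block the Nav1.7 count was 8, without Prkacb. Among single genes and their differences between lines, 206 alternative values kept their side of the threshold, 44 lost it and 6 crossed into it. Without detection calls, a change in a dim probe set such as that of Pde11a cannot be set against background.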
